A study of Mus musculus with 4 samples.

Results

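Nuclear receptors are transcription factors that sense fat-soluble ligands such as steroids, retinoids, thyroid hormone, oxysterols and bile acids, and the 36 mouse receptor genes listed here are those outside the REV-ERB, ROR and PPAR families. A gene was kept where its 4 raw counts summed to 15 or more, which held for 29 of the 36, out of 23420 genes in the table: 4 steroid receptors, 9 retinoid and thyroid receptors, 5 sterol-sensing receptors and 11 orphan receptors. RNA had been sequenced from pancreatic β-cells sorted by flow cytometry. The cells came from mice carrying a diphtheria toxin A (DTA) allele and were those left after doxycycline had been given for 10 days to ablate β-cells on a large scale. One group was labelled Bmal1KO (2 libraries, called KO-labelled) and the other Bmal1+/-, the heterozygote (2 libraries, called Het-labelled), and DTA and doxycycline were common to both. The promoter that drives DTA, the cell type in which Bmal1 was deleted, and the age and sex of the mice are not given in the labels used here, nor is the hour of collection. Whether replicates are separate animals or pools is not in the labels, so each p-value reflects only how these 4 libraries vary. How much of that variation is technical is not known.

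Most nuclear receptors have a ligand-binding domain and a zinc-finger DNA-binding domain. The steroid receptors mostly work as pairs of identical subunits. The receptors for retinoic acid, thyroid hormone, vitamin D, oxysterols and bile acids pair with a retinoid X receptor (RXR), which places the RXR genes at the centre of the network. Orphan receptors have no agreed natural ligand, and among them HNF4A is a regulator of β-cell genes whose human mutations cause an inherited form of diabetes.

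The libraries held 32819576 and 31056116 counts under the KO label and 38020488 and 34776920 counts under the heterozygous label. The 9 β-cell markers, among them both insulin genes, summed to 273800 and 235000 CPM (a gene's share of its library's counts, TMM-scaled as throughout) in the KO-labelled libraries and to 217100 and 276100 CPM in Het-labelled libraries, with 0 of 9 called higher and 2 lower. Ins1, Ins2 and Iapp gave most of these sums, and the list's median log2 fold change was -0.38. Ucn3 was at 53.0 and 89.1 CPM in KO-labelled libraries, against 270 and 314 CPM, and G6pc2 at 1028 and 1118 CPM against 2061 and 2103 CPM. Ins1, Pdx1, Mafa and Nkx6-1 were also lower in each KO-labelled library, while Ins2, Iapp and Slc2a2 overlapped. The targeted gene Arntl, which encodes BMAL1, went against its label: it was at 75.8 and 65.6 CPM in KO-labelled libraries, against 23.0 and 14.98 CPM in Het-labelled libraries. This difference passed the test used below (log2 fold change 1.89 with SE 0.24, adjusted p = 0.0175 by edgeR). A count over the whole gene cannot show whether a deleted part is missing, so groups are named by label and each direction reads KO label over heterozygous label. Marker RNA of other cell types differed between libraries as well. Stromal markers (10 genes, 0 of them absent from all 4 libraries and 4 absent from at least 1) summed to 133 and 362 CPM in KO-labelled libraries, against 58.2 and 17.3 CPM, and Pdgfra was at 0 in both Het-labelled libraries. Endothelial markers (8 genes, 5 at 0 in at least 1 library) summed to 38.3 and 17.8 CPM against 14.5 and 11.2 CPM, and immune markers (9 of 10 genes in the table, 1 at 0 in at least 1 library) to 254 and 731 CPM against 209.6 and 234 CPM. Acinar markers (12 genes, with Amy2a5 at 0 in all libraries) summed to 359.5 and 298 CPM against 337 and 325 CPM, but Bhlha15 alone gave 179 and 211 CPM of this against 268 and 299.9 CPM. The acinar median log2 fold change was 1.87 over 11 genes tested, with 0 called, and Prss2, a trypsinogen gene, was at 54.3 and 5.22 CPM against 6.998 and 0.121 CPM. PP-cell markers (2 genes) summed to 2323 and 4623 CPM in KO-labelled libraries, against 1601 and 1278 CPM. Neural markers (6 genes, 3 at 0 in at least 1 library) summed to 17.5 and 27.7 CPM against 12.3 and 11.6 CPM. Duct markers (7 genes) were lower, at 569 and 548 CPM against 742 and 818 CPM. Those of δ-cells (5 genes) overlapped, at 617 and 1532 CPM against 1036 and 1123 CPM. None of the genes in these lists was called. In sex-linked RNA, Xist was at 8.68 and 38.8 CPM in KO-labelled libraries, against 72.3 and 67.5 CPM in Het-labelled libraries. The Y-linked gene Ddx3y was at 89.1 and 23.8 CPM against 20.5 and 12.1 CPM, and Eif2s3y at 136 and 32.3 CPM against 36.9 and 20.2 CPM. Both KO-labelled libraries lay below both others in Xist and above both in Ddx3y, while Eif2s3y overlapped. KO replicate 1 lay furthest out in each of these genes. In such bulk samples fewer cells of a type and less RNA per cell cannot be told apart.

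Of the 29 receptor genes, 26 had enough counts to be tested. Only Nr1h4, which encodes the bile acid receptor FXR, rose in the KO-labelled libraries by edgeR's quasi-likelihood test, 0 fell, and 25 did not pass an adjusted p of 0.05. The 1 call is 3.85% of the receptors tested, against 1.20% of all genes tested that edgeR called higher, with 1.34% called lower. DESeq2 called 2 receptors higher, Nr1h4 and Thra, or 7.69%, and 0 lower, against 4.23% of all genes higher and 3.82% lower by the same tool. At an unadjusted p under 0.05 there were 6 receptors, or 23.1%, against 16.9% of all genes. KO-labelled and Het-labelled values stood apart for 12 receptors, 5 with KO above and 7 with KO below, or 46.2%, against 49.0% of all genes. The share that stood apart lay near that of all genes, and the median log2 fold change of the receptors was 0.083 against 0.024 over all genes tested. Positive and negative values stood side by side in all 4 classes, as the plot of fold changes shows.

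**Figure D1:**
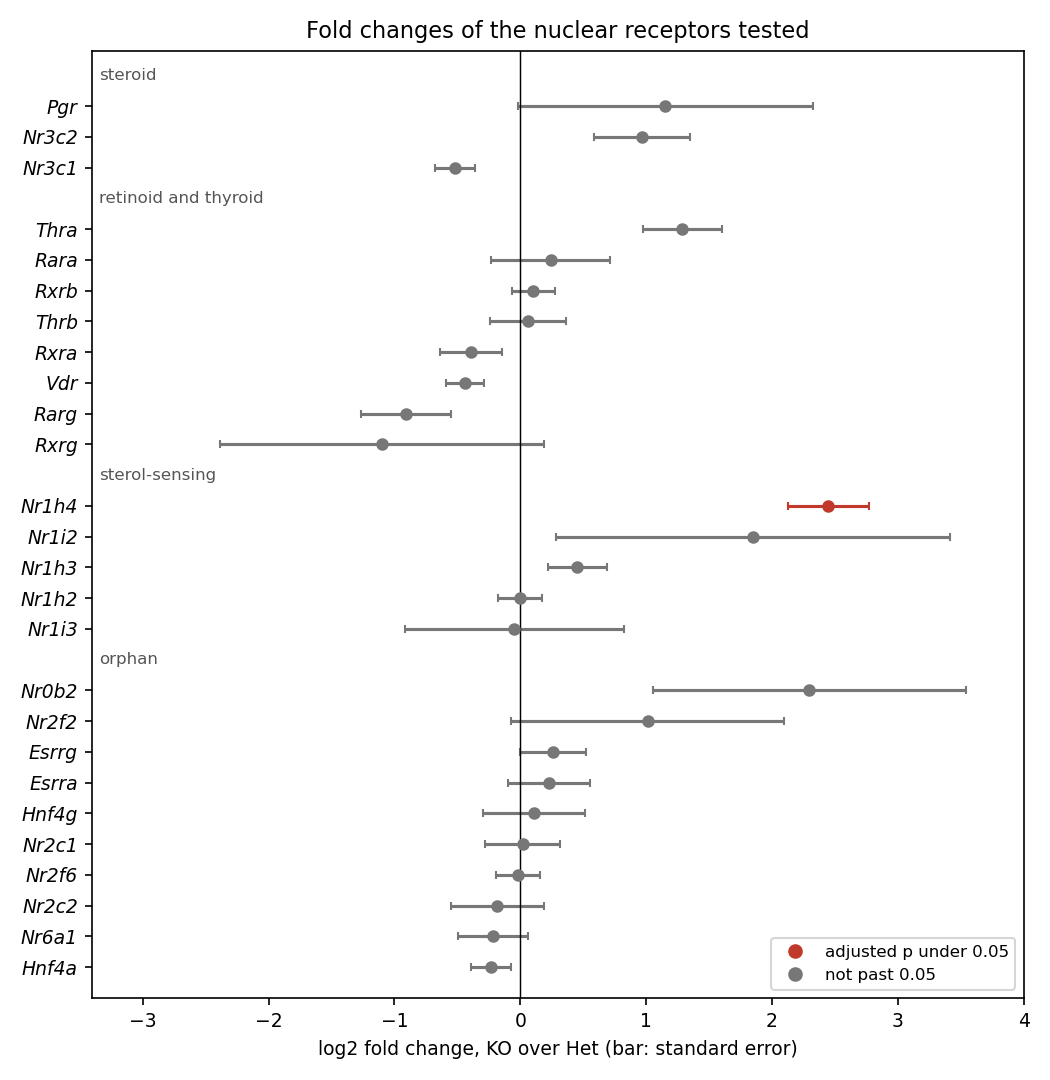
Log2 fold change of each receptor tested, KO-labelled libraries over Het-labelled libraries (x axis), by receptor class (y axis), with 2 libraries per group. Bars are standard errors, taken as the absolute log2 fold change over the square root of the F statistic of edgeR's test. Nr1h4 at 2.45 is the only receptor past an adjusted p of 0.05, and the other 25 lie between -1.10 and 2.30.

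Nr1h4 (chromosome 10, 89454234 to 89533585, GRCm38, minus strand) encodes FXR, which binds bile acids, pairs with RXR and is best known in liver and intestine. It was at 34.5 and 21.3 CPM in the KO-labelled libraries (1134 and 682 counts), against 5.71 and 4.51 CPM in Het-labelled libraries (221 and 149 counts). Both KO-labelled libraries lay far above both Het-labelled ones, and the KO-labelled libraries also differed from each other. The means were 27.9 ± 9.36 CPM and 5.11 ± 0.846 CPM (SD, n = 2 each), a 5.46-fold difference or 2.45 on the log2 scale with SE 0.32 (adjusted p = 0.0175 by edgeR). Leaving out Het replicate 2 ended this call, at 2.28 on the log2 scale and an adjusted p of 0.0918 by edgeR. Without KO replicate 1, the library furthest out in sex-linked RNA, the difference was 2.03 on the log2 scale. KO replicate 2, which remained, also lay apart from the Het-labelled libraries in Xist and Ddx3y. The stromal and endothelial sums given above were higher in the same libraries, with 3 of 7 stromal markers tested called higher and a stromal median log2 fold change of 3.04, and the part of other cells in the Nr1h4 difference was not tested.

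The promoter window of Nr1h4 is shown because this was the receptor that passed the test. It covers 250 bases before to 50 bases after the RefSeq start (GRCm38.p6, chr10:89506609-89506908, minus strand), printed from its upstream end. GENCODE extends the gene further upstream than this start, so at least 1 other start lies outside the window. Capitals mark the AGGTCA element that many nuclear receptors bind, found here on the reverse strand.

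Nr1h4 promoter: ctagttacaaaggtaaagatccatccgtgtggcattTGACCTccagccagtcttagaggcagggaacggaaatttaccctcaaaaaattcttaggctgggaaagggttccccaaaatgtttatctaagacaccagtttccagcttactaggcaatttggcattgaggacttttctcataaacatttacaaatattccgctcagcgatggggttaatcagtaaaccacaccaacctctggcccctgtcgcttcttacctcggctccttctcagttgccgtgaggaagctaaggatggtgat

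Windows were searched on both strands for AGGTCA and for the E-box CACGTG, the element that BMAL1 and CLOCK bind. The Nr1h4 window held 1 AGGTCA match, 214 bases upstream of the start, and 0 CACGTG matches. Over all 32851 RefSeq windows, 16.3% held AGGTCA and 7.15% held CACGTG. Of the 50 windows of the listed receptors (32 of 36 genes matched by symbol), 18% held AGGTCA and 12% held CACGTG, which was found in Esr2, Nr0b2, Nr1i3, Rara and Thrb. The CACGTG site of Rara was counted in more than 1 of these windows, since windows of nearby starts overlap. A window without a match says only that these letters are not in it. The inverted repeat of AGGTCA with 1 base between its arms, which contains the shorter element and is the site best known for FXR with RXR, was in 0 receptor windows and in 3 of all windows.

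The other sterol-sensing receptors did not pass. Nr1h3 (LXRα) and Nr1h2 (LXRβ) encode the oxysterol receptors that switch on cholesterol efflux. Nr1h3 was at 23.4 and 18.3 CPM in KO-labelled libraries, against 15.7 and 14.8 CPM in Het-labelled libraries (log2 fold change 0.45 with SE 0.24, adjusted p = 0.395 by edgeR), without overlap. Nr1h2 was at 106 and 97.3 CPM in KO-labelled libraries, against 116 and 87.3 CPM, with the KO values inside the Het range and a log2 fold change of -0.0025 (SE 0.18). The xenobiotic sensors were scarce. Nr1i2 (PXR) had 14 and 42 counts in KO-labelled libraries against 0 and 16 counts, and Nr1i3 (CAR) had 16 and 42 counts against 31 and 35 counts. Counts of Nr1i3 are uncertain, since 74.9% of its exon bases overlap exons of Tomm40l on the other strand and the library kit does not mark strand. Nr1h5, the second FXR gene of mice, had 0 counts in all 4 libraries, which allows up to 3 counts, or 0.0775 to 0.0937 CPM, per library (counting error only).

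Among the retinoid and thyroid receptors none passed, and the largest difference in the class was that of Thra. Thra encodes the thyroid hormone receptor TRα (chromosome 11, 98740638 to 98769006, plus strand). It was at 12.8 and 12.2 CPM in KO-labelled libraries, against 5.76 and 4.48 CPM in Het-labelled libraries (log2 fold change 1.29 with SE 0.31, adjusted p = 0.0930 by edgeR). The KO-labelled libraries lay close together and above both others. DESeq2 called it higher (log2 fold change 1.28, DESeq2 adjusted p = 0.00989). Exons of Thra share 5.7% of their bases with Nr1d1 on the other strand, and Nr1d1, the REV-ERBα gene, had values of the opposite order, at 14.5 and 19.8 CPM in KO-labelled libraries against 88.4 and 31.1 CPM (log2 fold change -1.80, adjusted p = 0.102 by edgeR). Thrb, which encodes TRβ, was at 8.28 and 10.1 CPM against 9.32 and 8.29 CPM (log2 fold change 0.062, SE 0.30), so its groups overlapped.

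Vdr, the vitamin D receptor gene (chromosome 15, 97854425 to 97910630, minus strand), had the highest mean level per kilobase of merged exons over the 4 libraries. It was at 168 CPM in both KO-labelled libraries, against 249 and 205 CPM in Het-labelled libraries (log2 fold change -0.44 with SE 0.15, adjusted p = 0.207 by edgeR). Rarg, a retinoic acid receptor gene, was at 4.78 and 4.81 CPM in KO-labelled libraries, against 10.6 and 7.33 CPM (log2 fold change -0.91 with SE 0.36, adjusted p = 0.263 by edgeR). Both genes were lower in each KO-labelled library without passing the test. Rara, its close relative, was at 3.35 and 3.69 CPM against 3.43 and 2.51 CPM, with overlap.

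The RXR partners were dominated by Rxrb. Rxrb was at 83.0 and 66.3 CPM in KO-labelled libraries, against 73.3 and 65.6 CPM in Het-labelled libraries (log2 fold change 0.10 with SE 0.17, adjusted p = 0.825 by edgeR). Rxra was at 12 and 11.6 CPM against 16.2 and 14.8 CPM (log2 fold change -0.39 with SE 0.25, adjusted p = 0.490 by edgeR), lower in each KO-labelled library. Rxrg was near the floor, with 1 and 16 counts against 22 and 19 counts. Rarb, itself a classical target of retinoic acid, had 15 and 1 counts in KO-labelled libraries against 0 and 1 counts, too few to test, and 34.1% of its exon bases overlap Top2b on the other strand.

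**Figure D2:**
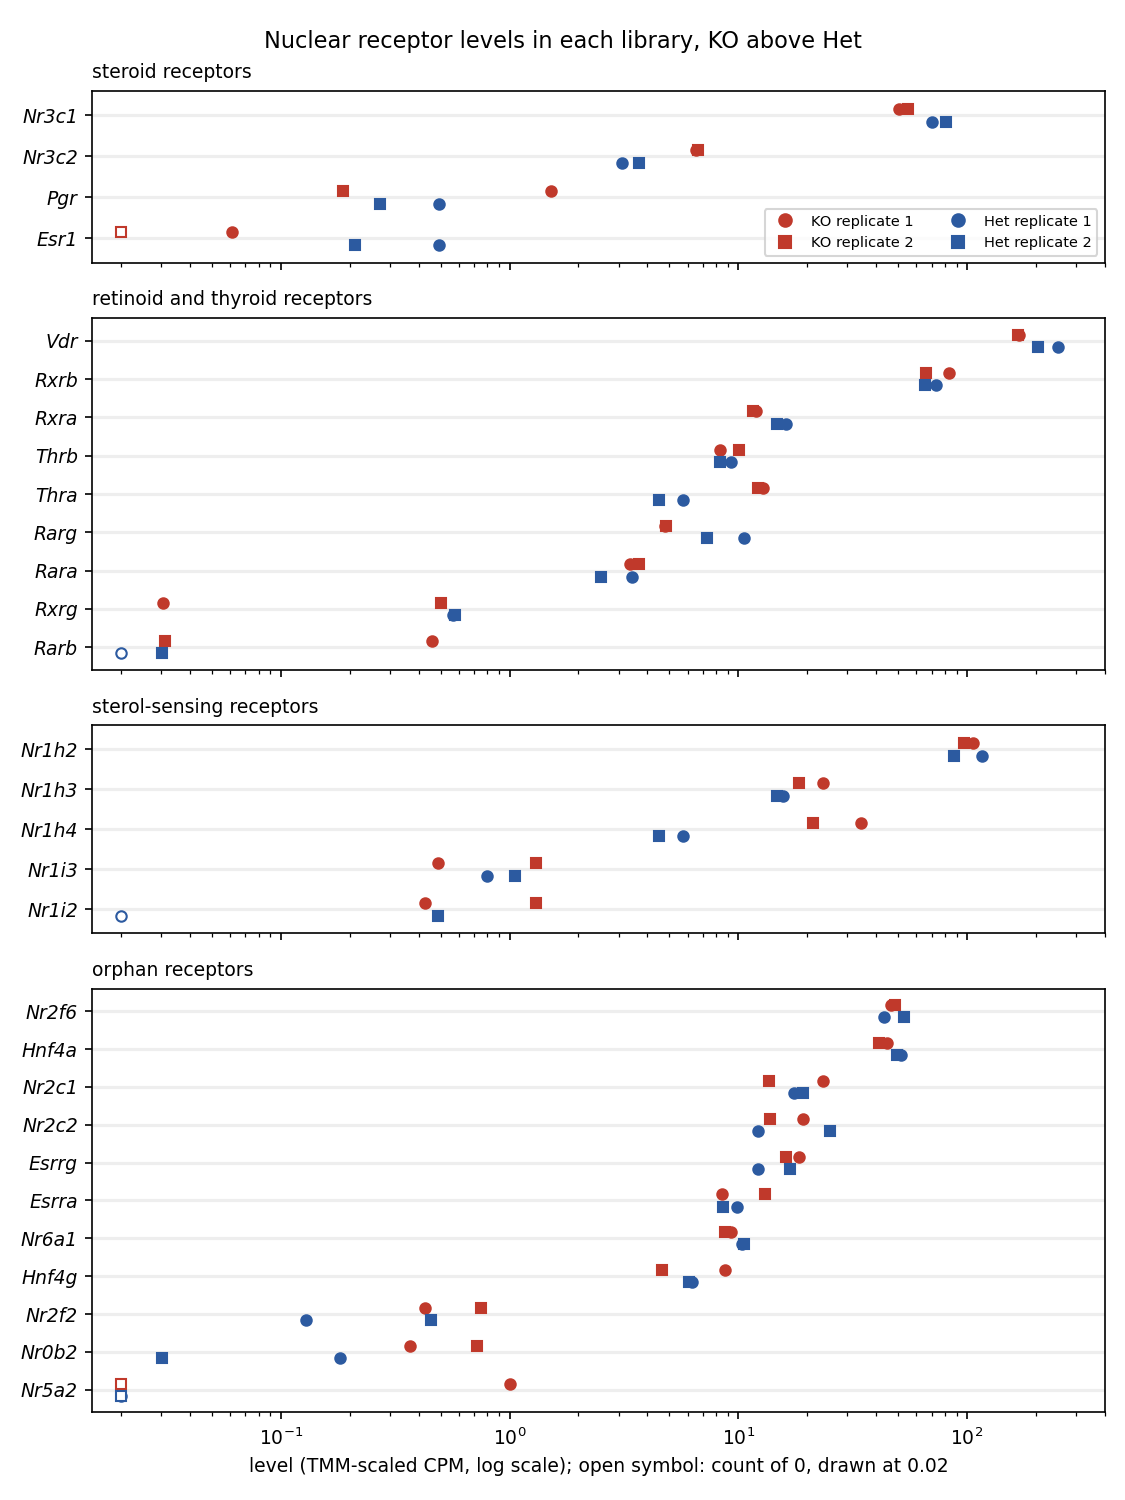
Level of each of the 29 receptors (y axis, by class) in each library as TMM-scaled CPM on a log axis, with KO-labelled libraries in red above Het-labelled ones in blue, circles for replicate 1 and squares for replicate 2. For Nr1h4 the red points at 34.5 and 21.3 CPM stand clear of the blue points at 5.71 and 4.51 CPM.

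The corticosteroid receptors differed in opposite directions, without passing the test. Nr3c1 encodes the glucocorticoid receptor, and Nr3c2 the mineralocorticoid receptor, which also binds glucocorticoids. Nr3c1 was at 50.5 and 55.1 CPM in KO-labelled libraries, against 70.6 and 80.8 CPM in Het-labelled libraries (log2 fold change -0.52 with SE 0.16, adjusted p = 0.163 by edgeR). Nr3c2 was at 6.55 and 6.68 CPM in KO-labelled libraries, against 3.10 and 3.66 CPM (log2 fold change 0.97 with SE 0.38, adjusted p = 0.264 by edgeR). For both genes the groups did not overlap.

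Sex steroid receptors were barely detected. Pgr, the progesterone receptor gene, had 50 and 6 counts in KO-labelled libraries against 19 and 9 counts. Without KO replicate 1 its log2 fold change of 1.15 became -1.04. Esr1, the gene of estrogen receptor α, had 2 and 0 counts against 19 and 7 counts and was not tested. Esr2 had 1 count in all.

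No orphan receptor passed. Hnf4a was at 44.7 and 41.0 CPM in KO-labelled libraries, against 51.4 and 49.4 CPM in Het-labelled libraries (log2 fold change -0.23 with SE 0.16, adjusted p = 0.535 by edgeR). Its values were lower in each KO-labelled library without passing the test. Hnf4g, its paralog, was at 8.71 and 4.65 CPM against 6.28 and 6.11 CPM. Nr2f6, a COUP-TF relative that acts mainly as a repressor, was at 46.4 and 48.2 CPM against 43.2 and 52.9 CPM (log2 fold change -0.021, SE 0.18). In Nr2f6 54.4% of exon bases overlap Ocel1 on the other strand, so its level is uncertain.

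The testicular receptors, repressors named for where they were first cloned, varied between replicates by more than between groups. Nr2c1 was at 23.5 and 13.6 CPM in KO-labelled libraries, against 17.5 and 19.3 CPM (log2 fold change 0.018, SE 0.30). Nr2c2 was at 19.1 and 13.7 CPM against 12.2 and 25.1 CPM (log2 fold change -0.18, SE 0.37), and 30.7% of its exon bases overlap Mrps25. Nr6a1, the germ cell nuclear factor gene, was at 9.26 and 8.77 CPM against 10.4 and 10.6 CPM, without overlap (log2 fold change -0.22, SE 0.28).

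Estrogen-related receptors drive genes of mitochondrial respiration, and Esrrg is known for its part in the maturation of β-cells. Esrrg was at 18.5 and 16.2 CPM in KO-labelled libraries, against 12.2 and 16.9 CPM (log2 fold change 0.26 with SE 0.26, adjusted p = 0.690 by edgeR). Esrra was at 8.53 and 13.1 CPM against 9.92 and 8.57 CPM (log2 fold change 0.23, SE 0.33). The groups overlapped for both.

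Several orphan receptors were low, and some were counted in a single library. Nr5a2, a regulator of acinar cells, had 33 counts in KO replicate 1 and 0 in the other libraries, and was not tested. In that library Rbpjl, an acinar factor, had 287 counts, against 79 in KO replicate 2 and 66 and 0 in the Het-labelled libraries. Nr0b2 encodes SHP, a repressor that FXR switches on. It had 12 and 23 counts in KO-labelled libraries, against 7 and 1 counts (log2 fold change 2.30 with SE 1.24, adjusted p = 0.415 by edgeR). Nr2f2 (COUP-TFII), which marks several stromal and endothelial cells, had 14 and 24 counts against 5 and 15 counts. Below the count rule, Nr2f1 had 13 counts, all in KO replicate 1, Nr5a1 and Esrrb had 4 counts each, both in Het replicate 1, Nr2e3 had 1 count and Nr0b1 had 0.

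Scaled to CPM per kilobase of merged exons, receptor mRNA spanned a wide range, and this scale allows genes to be compared with each other. Vdr averaged 35.0 CPM per kb over the 4 libraries and Nr1h2 30.3 CPM per kb, and their ranges over libraries overlapped. Rxrb followed at 18.1, Nr2f6 at 15.98, Hnf4a at 9.66, Nr3c1 at 8.36, Nr1h3 at 7.18 and Nr1h4 at 7.17 CPM per kb. Among neighbours in the order of all 29, the library ranges were apart only between Nr1h2 and Rxrb and between Nr2f6 and Hnf4a. Of all 29, Nr1h4 differed most in place between groups, at 12.1 ± 4.06 CPM per kb and position 5 of the 36 listed genes in KO-labelled libraries, against 2.22 ± 0.367 CPM per kb and position 12 in Het-labelled libraries (SD, n = 2 each). Taking the longest transcript as the length kept 9 of the 10 highest genes but put Nr1h2 at position 1 and Vdr at position 2. With merged exons, too, the order differed by group. In KO-labelled libraries Nr1h2 was first, at 30.3 against 29.7 CPM per kb for Vdr.

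Within families the same measure gives each gene's share. The families were set by relationship after the values had been seen, and shares carry no test. Nr3c2 made up 13.3% and 12.6% of the corticosteroid receptor level in KO-labelled libraries, against 4.95% and 5.1% in Het-labelled libraries. Thra made up 71.3% and 65.9% of the thyroid hormone receptor level, against 49.8% and 46.4%. Rara made up 38.8% and 42.7% of the retinoic acid receptor level in KO-labelled libraries, against 24% and 25%, with Rarg holding most of the rest. In each of these families the 2 groups stood apart. Nr1h4 made up 26.8% and 20.3% of the summed FXR and LXR level, against 5.71% and 5.78%. Between the LXR genes alone, Nr1h3 held 22.8% and 20.1%, against 15.3% and 18.4%. Shares within the HNF4, ERR and testicular receptor pairs overlapped between groups, and Rxrb held 90.4% and 87.7% of the RXR level, against 85.2% and 84.8%.

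**Figure D3:**
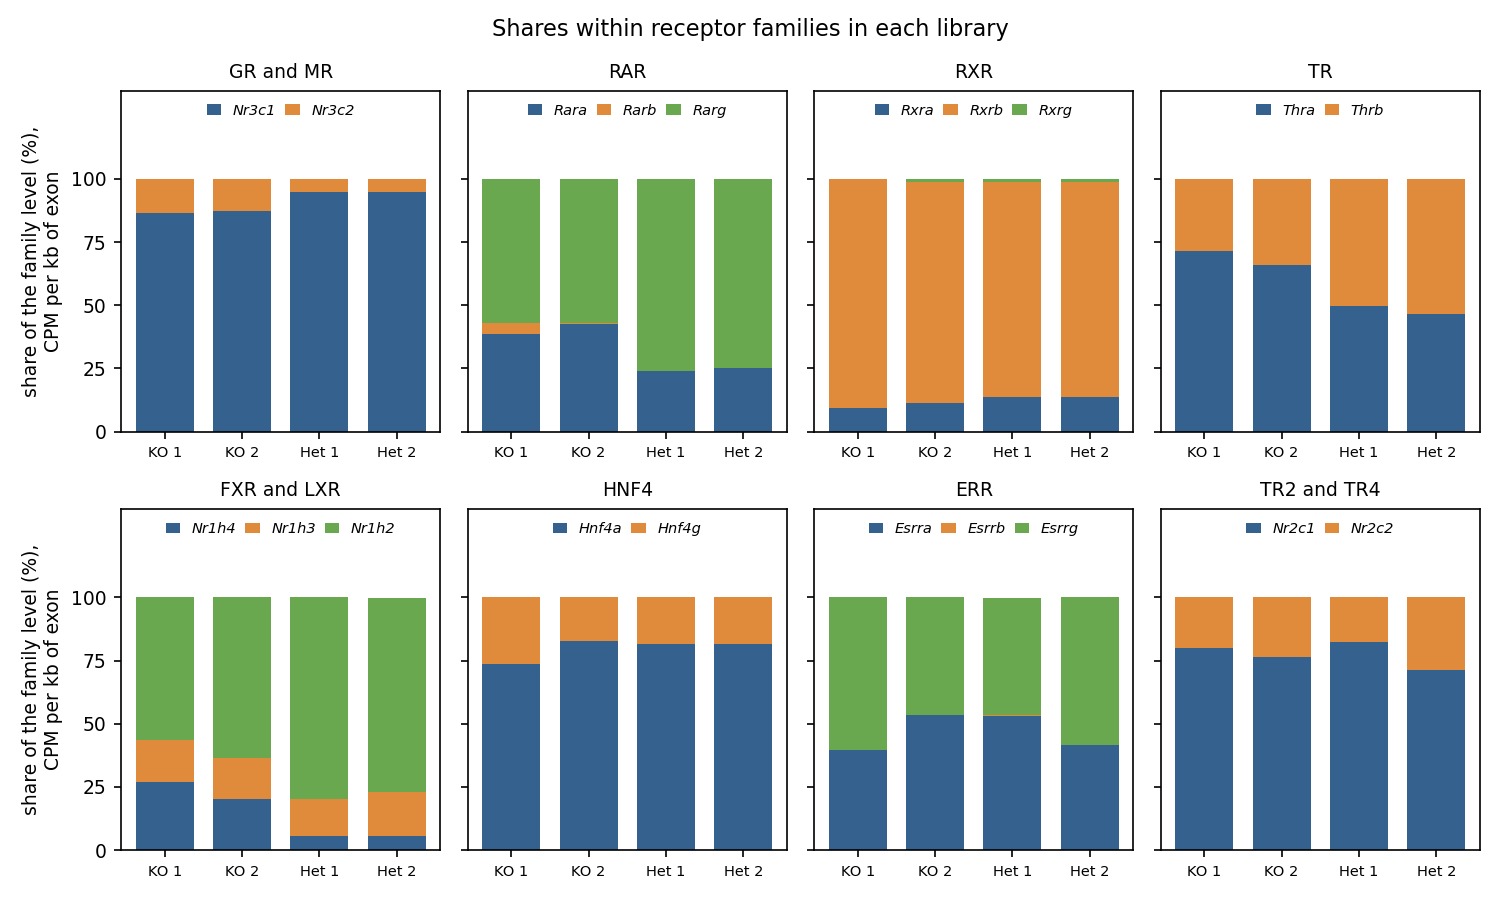
Share of each gene in the summed level of its receptor family (y axis, percent of CPM per kb of merged exon) in each library (x axis, KO-labelled libraries left of Het-labelled ones), as stacked bars without error. The Thra share of the TR panel is 71.3% and 65.9% in the KO-labelled libraries and 49.8% and 46.4% in Het-labelled libraries, while the Hnf4a share overlaps between groups.

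Genes that work with these receptors were followed in 12 textbook lists of coregulators, ligand metabolism and target genes. The lists were chosen with earlier results of these data known, so a share above that of all genes is not a test of them. Of 130 genes tested in them, each counted once, 5 rose and 2 fell, or 5.38%, against 2.54% of all genes called in either direction. In 5 lists edgeR called 0 genes. At an unadjusted p under 0.05, which 16.9% of all genes reached, these lists held 8 of 14 glucocorticoid receptor targets, 2 of 12 genes of steroid metabolism and chaperones, 2 of 6 estrogen receptor targets, 1 of 5 genes of oxysterol and bile acid synthesis and 6 of 10 HNF4 targets. DESeq2, which called 8.05% of all genes in either direction, called 4, 0, 1, 1 and 4 genes of these lists, in the order given. Of 26 coregulators only Hr rose, and the list median was 0.047. Hr encodes a corepressor of the thyroid hormone and vitamin D receptors and is itself a target of thyroid hormone. It was at 16.1 and 13.2 CPM in KO-labelled libraries, against 2.43 and 1.57 CPM in Het-labelled libraries (log2 fold change 2.87 with SE 0.37, adjusted p = 0.0175 by edgeR). Cited2, the next by p, was at 64.7 and 44.4 CPM against 36.2 and 27.3 CPM and did not pass.

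Of 15 LXR targets tested, Abca1 and Lpl rose, 0 fell and 13 did not pass, with a median of 0.84 and 11 positive values. Abca1, the pump that exports cholesterol to lipoproteins, was at 143 and 96.5 CPM in KO-labelled libraries, against 49.4 and 47.98 CPM (log2 fold change 1.30 with SE 0.21, adjusted p = 0.0277 by edgeR). Lpl, the lipase of circulating triglycerides, was at 161 and 125 CPM against 34.1 and 23.9 CPM (log2 fold change 2.30 with SE 0.23, adjusted p = 0.0127 by edgeR). Both genes stood clear of the Het-labelled libraries. Lpl and Abca1 are also made by macrophages and stromal cells, whose marker sums were higher in the same libraries, and the part of those cells was not tested. None of 5 genes of oxysterol and bile acid synthesis passed (median -0.44). Hsd3b7, an enzyme gene of that pathway, was nearest, at 94.4 and 79.0 CPM against 144 and 142 CPM (log2 fold change -0.72, adjusted p = 0.0633 by edgeR), and 62% of its exon bases overlap Gm49388. Cyp27a1, which makes oxysterols and bile acids, was at 4.60 and 27.5 CPM against 6.998 and 6.66 CPM, with overlap, and without KO replicate 2 its log2 fold change of 1.23 became -0.57.

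Few targets of FXR, PXR and CAR were expressed. Of 15 listed genes 5 were tested, and Abcb4, a phospholipid transporter of bile that FXR activates in liver, fell to 11.7 and 12.7 CPM in KO-labelled libraries, against 31.6 and 30.8 CPM in Het-labelled libraries (log2 fold change -1.36 with SE 0.20, adjusted p = 0.0232 by edgeR). Its direction was opposite to that of Nr1h4. Abcb11, the bile salt pump gene, was at 8.46 and 8.87 CPM against 6.09 and 6.33 CPM (log2 fold change 0.48, adjusted p = 0.511 by edgeR). Fgf15 had 30 counts in KO replicate 2 and 0 elsewhere.

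Of 12 retinoid genes tested, Dhrs3 rose, 11 did not pass, and 11 had a positive value, with a median of 1.07. Dhrs3, which reduces retinal back to retinol and is induced by retinoic acid, was at 72.5 and 26.8 CPM in KO-labelled libraries, against 3.23 and 4.21 CPM (log2 fold change 3.74 with SE 0.48, adjusted p = 0.0175 by edgeR). Aldh1a3, which makes retinoic acid and is named after its values were seen, was at 544 and 776 CPM against 279 and 422 CPM without passing (log2 fold change 0.91, adjusted p = 0.120 by edgeR). Of 11 thyroid hormone genes only Hr rose, and the median was -0.10. Mbp, the next by p, was at 128 and 120 CPM in KO-labelled libraries, against 63.6 and 83.8 CPM (log2 fold change 0.75, adjusted p = 0.0845 by edgeR). Of 5 vitamin D genes Gc fell and 4 did not pass, with a median of 0.77. Gc, the vitamin D binding protein gene, which α-cells also express strongly, was at 229.7 and 191 CPM against 391.9 and 406 CPM (log2 fold change -0.92 with SE 0.15, adjusted p = 0.0286 by edgeR). The α-cell markers, Gc among them, summed to 3146 and 4733 CPM in KO-labelled libraries against 3095 and 3719 CPM, with 1 of 8 called higher and 1 lower.

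None of 14 glucocorticoid receptor targets passed in edgeR's test, although 11 had a positive value and the median was 0.61. Errfi1, a feedback inhibitor of EGF receptors, was at 78.2 and 72.5 CPM in KO-labelled libraries, against 48.6 and 47.8 CPM (log2 fold change 0.64, adjusted p = 0.0850 by edgeR). Cebpd, a transcription factor gene of the acute response, was at 20.3 and 13.2 CPM against 7.62 and 5.96 CPM (log2 fold change 1.30, adjusted p = 0.102 by edgeR), and 15% of its exon bases overlap Spidr. DESeq2 called 4 of these targets higher, against 4.23% of all genes, and edgeR called 5 without KO replicate 2, against 2.66% of all genes in that fit. Of those 5, Lcn2 was not tested in the main fit and is not among the 14. It had 143 and 2 counts in KO-labelled libraries, against 7 and 1 counts. The KO side of that fit was KO replicate 1 alone. Leaving out any other library gave fewer calls in this list. None of 12 genes of steroid metabolism and receptor chaperones passed (median -0.11). Cyp19a1, the aromatase gene, was at 62 and 65 counts against 17 and 10 counts. The co-chaperone gene Stip1 was at 132 and 179 CPM against 204 and 218 CPM. None of 6 estrogen receptor targets passed (median 0.55), with Igfbp4 at 7.43 and 8.87 CPM against 3.77 and 1.79 CPM and Fhl2 at 7.98 and 5.56 CPM against 2.69 and 0.605 CPM.

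None of 10 HNF4 targets passed (median 0.20). Tmem27, a collectrin gene active in β-cells, was at 1119 and 1134 CPM in KO-labelled libraries, against 681 and 747 CPM (log2 fold change 0.66 with SE 0.13, adjusted p = 0.0532 by edgeR). It passed in 10 of 15 alternative fits. Vil1, a brush border gene, was at 249 and 208 CPM against 144 and 146 CPM (log2 fold change 0.65, adjusted p = 0.0786 by edgeR). Of 13 ERR targets Pdk4 rose and 12 did not pass, with a median of -0.079. Pdk4, a kinase that restrains pyruvate oxidation and also answers to PPAR and glucocorticoid signals, was at 8.65 and 12 CPM in KO-labelled libraries, against 1.32 and 1.15 CPM (log2 fold change 3.06 with SE 0.41, adjusted p = 0.0175 by edgeR). Atp5b, a subunit gene of ATP synthase, was at 575 and 527 CPM against 684 and 730 CPM without passing. Without Het replicate 2 Lpl alone passed of these 7 called genes, with an adjusted p of 0.0470 by edgeR. The others then had adjusted p, again by edgeR, of 0.0911 (Hr), 0.0666 (Dhrs3), 0.160 (Gc), 0.155 (Abca1), 0.145 (Abcb4) and 0.0990 (Pdk4). Without Het replicate 1 the calls of Gc (0.0859), Abca1 (0.0779) and Abcb4 (0.111) were lost, and limma-voom ended that of Dhrs3 (adjusted p = 0.0504). Marker sums of stromal, endothelial, immune, PP-cell and neural RNA were higher in the KO-labelled libraries. The part of such RNA in the values of Hr, Dhrs3 and Pdk4 was not tested.

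**Figure D4:**
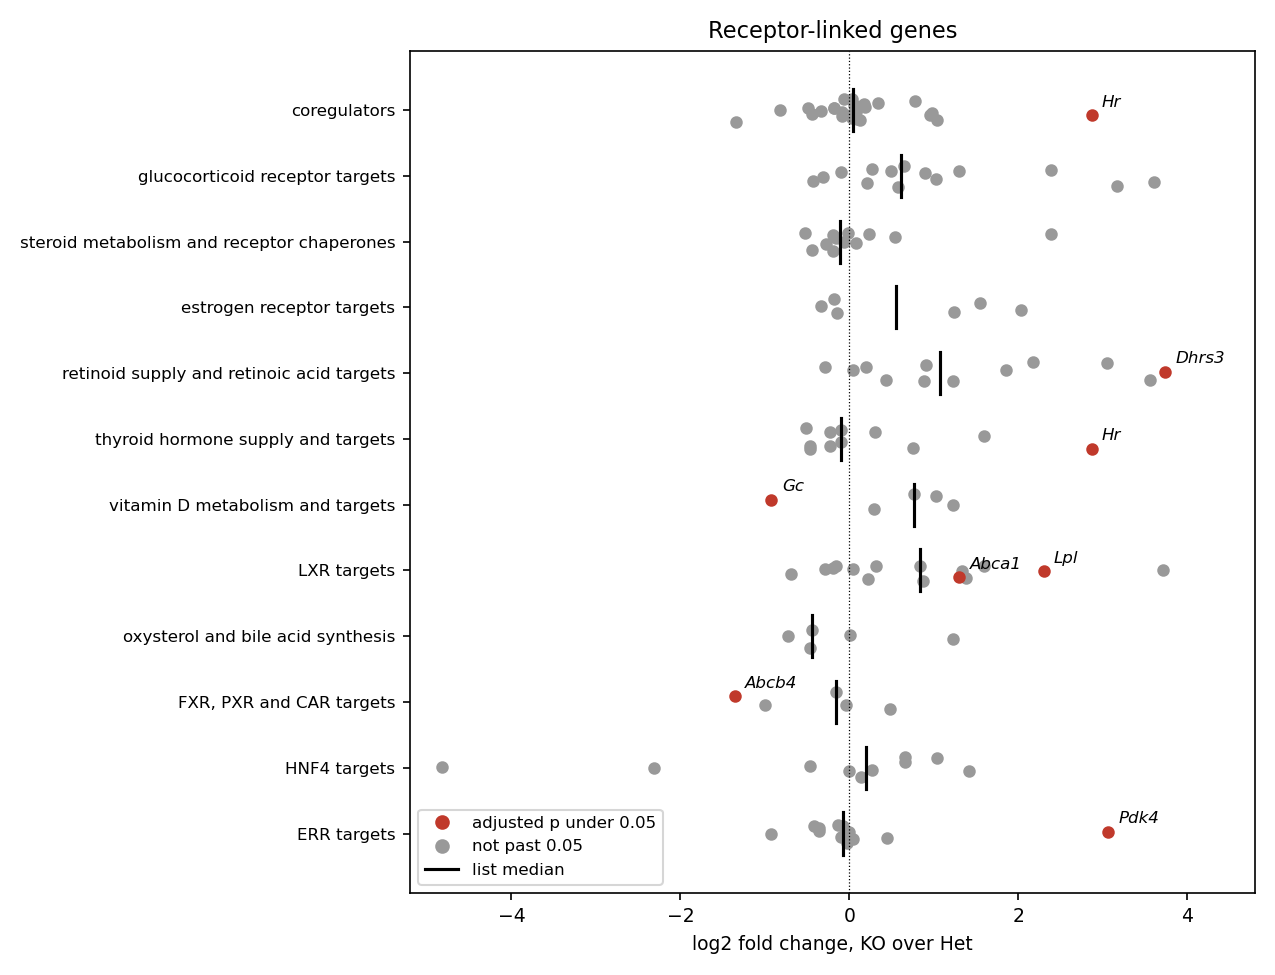
Log2 fold change (x axis, KO-labelled libraries over Het-labelled libraries) of each gene tested in the 12 receptor-linked lists (y axis), with genes past an adjusted p of 0.05 in red and a black line at each list's median. The 7 called genes are named, Hr in both lists that hold it, and stand away from medians that run from -0.44 to 1.07.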

How the data were processed

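RNA of sorted β-cells (2 KO-labelled and 2 Het-labelled libraries) had been extracted with an RNeasy Plus Micro kit and amplified with a SMART-Seq v4 kit, per the labels' protocols. The submitters' processing notes list mm10, STAR and edgeR. Not given in the sources used here were the counter, its strand setting and its annotation. Raw read counts per gene symbol, as deposited by the authors, were tested. A scaled signal deposited by the authors equals the counts times 1 constant per library, and whole reads were recovered for 100% of its values (tolerance 0.01). Testing those reads, which repeat the deposited counts, called 176 genes higher and 196 lower, as in the main test.

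Low genes were removed by filterByExpr (at least 10 counts, total 15), TMM scaling followed, and edgeR 4.0.16 (R 4.3.3) fitted 1 group term. Tests were 2-sided, with Benjamini-Hochberg adjustment over all genes tested and a threshold of 0.05. Residual degrees of freedom were 2 and prior ones 5.12. Each SE was derived as the absolute log2 fold change over the square root of the F statistic of edgeR's test. The procedure was tested on simulated data. Replicates differed by far more than sampling noise (chi-square per degree of freedom 58.1 between KO-labelled and 38.4 between Het-labelled replicates). Levels per kilobase used merged exons of GENCODE M21 (GRCm38), where 36 of 36 symbols matched. Promoters are from RefSeq (GRCm38.p6). Floors of 3 counts cover counting error only, since reads carry no molecular identifiers.

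The receptors and lists were chosen with earlier results of these data known. Per-library values are given for receptors past the threshold, the 10 with the smallest p and the 3 most abundant per class, with others added, and in each list for up to 5 genes past the threshold or else the 2 with the smallest p. Vdr was classed with the retinoid and thyroid receptors since it pairs with RXR. Alternatives were RLE, upper-quartile and no scaling, TMM without the 20 most abundant genes, no filter or a mean of at least 1 CPM, DESeq2 1.42.0, limma-voom and limma-trend (limma 3.58.1, on log2 of the deposited values plus 0.5), the recovered reads, a replicate block, leaving out each library and a threshold of 0.1.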

Additional observations from a re-analysis of the deposited data

How the results depend on the processing

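Nr1h4 was called higher in 14 of 15 alternative fits, with log2 fold changes of 2.03 to 2.75, and 0 receptors were called lower in any. The fit on recovered reads is among the 15, but it repeats the main counts, so its result was fixed in advance. The count of receptors called higher was 0 to 1 when 1 library was left out, and 2 (Nr1h4 and Thra) with DESeq2 and at a threshold of 0.1. Over all genes, leaving out 1 library gave 17 to 404 higher and 8 to 422 lower, the lowest without Het replicate 2. DESeq2 gave 619 higher and 560 lower, no filter 430 and 378, and a threshold of 0.1 gave 378 and 350. The replicate block gave 313 and 278. No label ties the replicate numbers to a litter or batch, and same-numbered libraries did not deviate together (correlation of replicate differences -0.0167). The cause of these shifts was not tested.

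Log2 fold changes that changed sign were mostly near 0. Nr1h2 was 0.013 with upper-quartile scaling, 0.036 with library sizes only, 0.011 with a mean of at least 1 CPM, 0.0058 with limma-voom, 0.011 with limma-trend and 0.011 with the replicate block. Nr2c1 was -0.026 with limma-voom, -0.032 with limma-trend and -0.032 with the block. With library sizes only, Nr1i3 was 0.014 and Nr2f6 0.030. Leaving out 1 library at a time gave ranges of -1.04 to 1.98 for Pgr, -0.093 to 0.25 for Rxrb, -0.092 to 0.17 for Thrb, -0.21 to 0.21 for Nr1h2, -0.93 to 0.47 for Nr1i3, -0.46 to 0.36 for Nr2c1, -0.61 to 0.41 for Nr2c2, -0.17 to 0.12 for Nr2f6, -0.44 to 0.49 for Hnf4g, -0.12 to 0.48 for Esrra and -0.57 to 1.98 for Cyp27a1. With 1 library left in a group, that library is assumed to vary like the others. At these depths a receptor of a few counts per library allows no statement on a difference.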
